A study of Mus musculus with 6 samples.

Results

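Ankyrins and spectrins build the membrane skeleton, the protein net beneath the plasma membrane, and the genes described here are the 7 members Ank1, Ank2, Ank3, Sptan1, Sptb, Sptbn1 and Sptbn4. They were chosen by gene symbol, with no threshold on any value but with earlier results of these data known. All 7 were among the 24411 genes of the files and passed the filter on low counts, which kept 15303 genes. RNA of cochlear sensory epithelium was sequenced at P9 from mice that carried both transgenes, Otof rtTA+/- and Kir2.1+/- (the Kir2.1-OE group), and from littermate controls that carried the driver alone, Otof rtTA+/- with Kir2.1+/+. Both groups received doxycycline (DOX) in the drinking water, and both were on a C57BL/6N background. The driver places rtTA under the Otof promoter, which in the cochlea is used mainly by inner hair cells (IHCs). With DOX it switched on Kir2.1, a K+ channel whose overexpression, the paper reports, made the resting membrane potential of IHCs more negative. Each group had 3 libraries, and each library was 1 pool of 8 cochleae from 4 mice, so the pool is the replicate.

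Spectrin chains pair as alpha and beta subunits into long flexible rods that cross-link short actin filaments. Ankyrins are adaptors that hold these rods to ion channels, transporters and adhesion molecules of the membrane. In neurons the net forms the ringed lattice of the axon, and particular ankyrins and beta spectrins cluster Na+ channels at the axon initial segment and at nodes of Ranvier. In hair cells spectrin lies in the cuticular plate, the actin-rich base that holds the stereocilia, and along the lateral membrane.

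The start regions of Sptan1 and Sptb, an alpha and a beta subunit gene, are shown first. Among the members with a start window, only these had one that ended directly at the GENCODE gene start, without exon bases inside. RefSeq start windows were found for 5 of the 7 members, and Ank1 and Ank3 had none. The windows below hold the 250 bases upstream of the start, 5′ to 3′ on the gene's own strand, in GRCm38.p6. Capitals mark matches, on either strand, to the GC box (GGGCGG or CCGCCC), the SOX core (ACAAT or ATTGT), an RFX half-site (GTTGCC or GGCAAC) and the TATA box (TATAAA or TTTATA). None of the marked matches overlapped another.
Sptan1, chr2:29965310-29965559, plus strand: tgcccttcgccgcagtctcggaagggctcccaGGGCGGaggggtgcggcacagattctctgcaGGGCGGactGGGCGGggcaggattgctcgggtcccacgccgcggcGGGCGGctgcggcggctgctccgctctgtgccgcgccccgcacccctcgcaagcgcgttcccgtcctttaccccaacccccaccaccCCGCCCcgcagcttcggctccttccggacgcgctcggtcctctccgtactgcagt
Sptb, chr12:76710548-76710797, minus strand: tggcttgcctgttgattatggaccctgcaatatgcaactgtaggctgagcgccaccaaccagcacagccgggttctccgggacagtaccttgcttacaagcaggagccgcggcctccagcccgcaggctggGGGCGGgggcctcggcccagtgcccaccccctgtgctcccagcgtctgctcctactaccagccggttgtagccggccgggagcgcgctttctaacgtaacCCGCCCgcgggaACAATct

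The Sptan1 window held 5 GC boxes, and the Sptb window held 2 GC boxes and 1 SOX core. Of 27025 windows of the same length, 33% held a GC box, 28.2% a SOX core, 10.5% an RFX half-site and 13% a TATA box. The window of Sptbn4 held 2 GC boxes and 1 RFX half-site, that of Ank2 held 1 TATA box, and that of Sptbn1 held none of these letters. Those 3 windows are not printed, because their starts differ from the gene starts of the GENCODE annotation.

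Kcnj2, which encodes Kir2.1, had 3612, 3813 and 2213 normalized counts in the Kir2.1-OE libraries (in the order of replicates 1, 2 and 3, here and throughout) against 236, 228 and 226 in the controls, as their labels say. Normalized counts here are read counts scaled to the TMM library sizes, and the libraries held between 35430940 and 41205047 assigned reads. Hair cell genes were present in every library, among them Otof and Myo7a, but so were genes of neurons, myelinating glia, fibrocytes and bone, so the counts are those of dissected tissue and not of IHCs. In such bulk tissue, fewer cells of a type and less RNA per cell cannot be told apart. Nothing in the labels relates 1 pool to another, and p-values measure the spread between these pools.

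All 7 ankyrin and spectrin genes were higher in Kir2.1-OE mice than in controls, past a fold change of 1.5 with adjusted p below 0.05 (edgeR quasi-likelihood test, Benjamini-Hochberg adjustment over all genes tested). Over all genes tested, 15.5% were called higher by this rule and 5.08% lower. Mean normalized counts were between 2.36-fold (Ank3) and 4.97-fold (Ank1) those of the controls. Their median log2 fold change was 1.59, and that of all genes tested was 0.01. All 7 were called as well by glmTreat, edgeR's test against a log2 fold change of 0.6, which called 5.44% of all genes higher. For none of the 7 did the groups overlap, which also held for 31.7% of all genes tested in this direction and for 29.9% in the opposite one. An exact two-sided permutation test of each gene alone gave p = 0.1, the smallest value that 3 libraries against 3 allow.

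**Figure D1:**
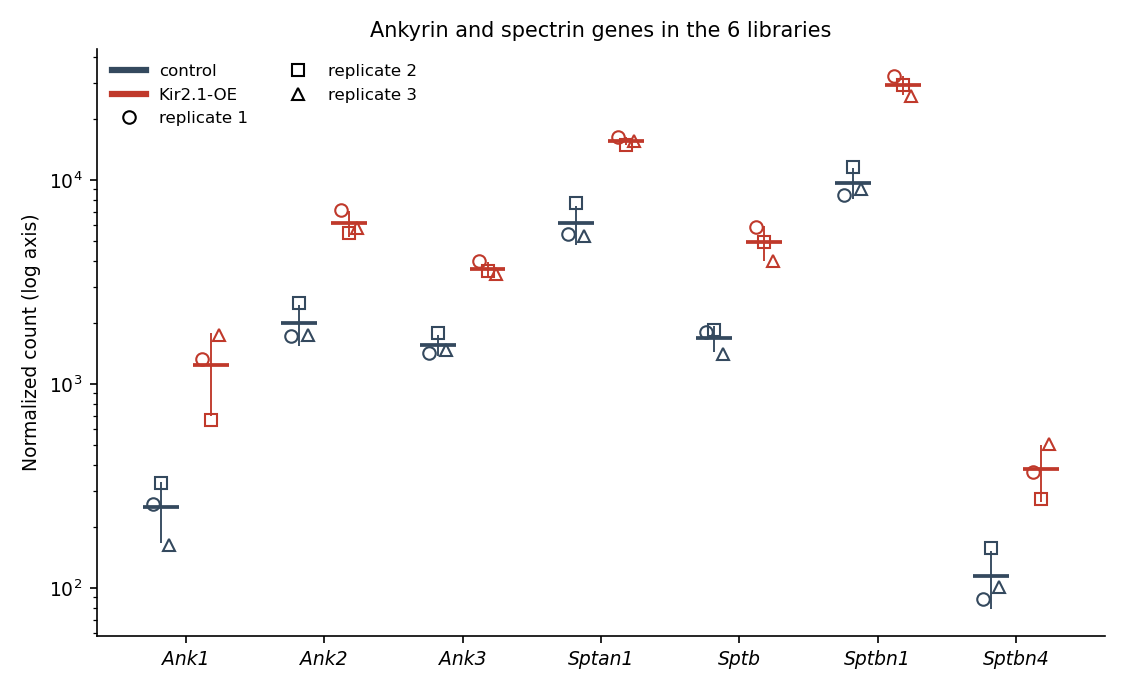
Normalized counts (log axis) of the 7 genes in each library. Open symbols are libraries, horizontal lines are group means and vertical lines are 1 SD either side (n = 3 pools); every Kir2.1-OE library lies above every control library of the same gene.

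Ank1 encodes ankyrin-R, the ankyrin of the red cell membrane that some neurons also use. It lies on chromosome 8 of mm10 from 22974844 to 23150497 (ENSMUSG00000031543). Its normalized counts were 1320.0, 666 and 1735 with Kir2.1 and 257, 329 and 163 in the controls. The lowest Kir2.1-OE library was still 2.02-fold above the highest control, although the Kir2.1-OE libraries were spread widely, with a coefficient of variation of 43.5%. The log2 fold change was 2.31 ± 0.34 (SE), the highest of the 7 members, with an adjusted p of 0.000669 by edgeR. The change stood above that of 99.87% of the genes tested. An annotated antisense gene, Gm15816, shares 862 exon bases with Ank1, and since no strand setting was stated for the counting, reads from the shared bases cannot be assigned to either with certainty. The same limit holds for shorter overlaps with genes of the opposite strand in Ank2 (260 bases), Sptbn4 (243), Sptbn1 (134) and Sptb (1).

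Ank2 encodes ankyrin-B, which carries membrane proteins and organelles along the axon and holds ion transporters at the membrane. The gene spans chromosome 3 from 126921612 to 127499350 (ENSMUSG00000032826). It had 7137, 5483 and 5847 normalized counts in the Kir2.1-OE libraries and 1726, 2499.6 and 1734 in the controls. Kir2.1-OE replicate 1 and control replicate 2 were the high libraries of their groups, and the groups stayed 2.19-fold apart at their nearest points. This gave a log2 fold change of 1.63 ± 0.16 (SE) and an adjusted p of 0.000148 by edgeR.

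Ank3 encodes ankyrin-G, the organizer of the axon initial segment and of nodes, where Na+ channels gather. It lies on chromosome 10 from 69398773 to 70027438 (ENSMUSG00000069601) and has 47 annotated transcripts, which the gene counts do not separate. Its normalized counts were 4015, 3572.5 and 3453 against 1427, 1774 and 1469. The libraries of each group lay close together, with coefficients of variation of 8.05% with Kir2.1 and 12.2% in controls. The log2 fold change of 1.24 ± 0.10 (SE) was the lowest of the 7, with an adjusted p of 0.000120 by edgeR.

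Sptan1 encodes alpha-II spectrin, the alpha chain of nearly all cells other than red cells and the common partner of the non-erythroid beta chains. On chromosome 2 it runs from 29965560 to 30031451 (ENSMUSG00000057738), directly after the first window printed above. It had 16269.6, 14816 and 15614 normalized counts in the Kir2.1-OE libraries, and 5418, 7705 and 5296 in the controls. Kir2.1-OE libraries differed little from each other (coefficient of variation 4.68%), whereas control replicate 2 stood above the other controls. The change came to a log2 fold change of 1.34 ± 0.14 (SE), with an adjusted p of 0.000166 by edgeR.

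Sptb encodes beta-I spectrin, the erythroid beta chain, which muscle and some neurons use as well. On chromosome 12 it spans 76580488 to 76710547 (ENSMUSG00000021061), on the minus strand. Normalized counts were 5913, 4971 and 3991 against 1799, 1842 and 1406 in the controls. Replicate 3 was the lowest in both groups. Its change was 1.56 ± 0.15 (SE) on the log2 scale, with an adjusted p of 0.000148 by edgeR.

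Sptbn1 encodes beta-II spectrin, the widespread beta chain that forms the axonal lattice with alpha-II spectrin. Its locus is chromosome 11 from 30099395 to 30268175 (ENSMUSG00000020315). It was the most abundant of the 7, with 32361, 29249.5 and 25956 normalized counts in the Kir2.1-OE libraries and 8439.6, 11623 and 9089 in the controls. Even the lowest Kir2.1-OE library was 2.23-fold above the highest control. The log2 fold change was 1.59 ± 0.13 (SE), with an adjusted p of 0.000124 by edgeR.

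Sptbn4 encodes beta-IV spectrin, the beta chain that works with ankyrin-G at axon initial segments and nodes. It lies on chromosome 7 from 27356383 to 27447686 (ENSMUSG00000011751) and was the least abundant. It shares 134 exon bases with Gm20479, annotated on the same strand and not analysed here. Its normalized counts were 370.5, 272 and 511 against 88.3, 156 and 101. Its groups came nearest to each other, with the lowest Kir2.1-OE library 1.74-fold above the highest control. The log2 fold change was 1.73 ± 0.27 (SE), with an adjusted p of 0.000851 by edgeR.

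Levels were compared between genes as normalized counts per kilobase of the longest annotated transcript and per 1000000 reads. In controls the order was Sptbn1 (28.4 ± 4.9, SD, n = 3), Sptan1 (20.4 ± 4.5), Sptb (4.31 ± 0.62), Ank3 (4.16 ± 0.51), Ank2 (3.70 ± 0.83), Ank1 (0.79 ± 0.27) and Sptbn4 (0.35 ± 0.11). The ranges of Sptbn1 and Sptan1 overlapped across control libraries, although Sptbn1 was the higher in 3 of 3, and Sptb, Ank3 and Ank2 were neighbours whose ranges overlapped. In Kir2.1-OE mice the order was Sptbn1 (85.4 ± 9.4), Sptan1 (51.7 ± 2.4), Sptb (12.7 ± 2.5), Ank2 (11.5 ± 1.6), Ank3 (9.84 ± 0.79), Ank1 (3.95 ± 1.72) and Sptbn4 (1.17 ± 0.37). Ank2 and Ank3 thus changed places, with Ank3 the higher in 3 of 3 control libraries and Ank2 in 3 of 3 Kir2.1-OE libraries, while the ranges of these neighbours overlapped within each group. These levels depend on the transcript taken for the length, since the genes have between 3 and 47 annotated transcripts.

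Within the ankyrins, Ank3 made up 48.4% ± 2.9 (SD, n = 3) of the counts per kilobase in controls and 39.2% ± 4.0 in Kir2.1-OE mice. Its share was 48.6%, 45.4% and 51.2% in the single control libraries and 38.0%, 43.7% and 36.0% with Kir2.1, so the groups did not overlap. The share of Ank1 was 9.07% ± 2.01 in controls against 15.4% ± 5.9, and its groups overlapped. Among the 3 beta spectrins Sptb, Sptbn1 and Sptbn4, Sptbn1 held 85.8% ± 2.0 in controls against 86.1% ± 0.7. The share of Sptb was 13.2% ± 2.1 against 12.7% ± 1.0, and that of Sptbn4 was 1.04% ± 0.16 against 1.21% ± 0.50, with overlapping groups for all 3.

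**Figure D2:**
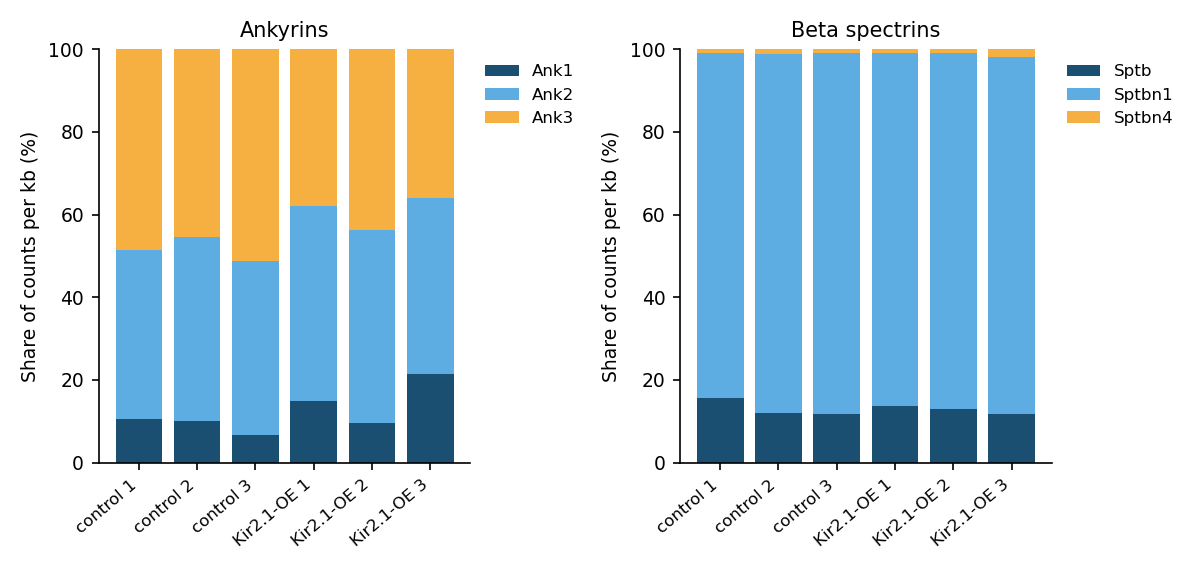
Share of each gene in the summed counts per kilobase of the ankyrins (left) and of Sptb, Sptbn1 and Sptbn4 (right), in percent, for each library. The Ank3 part is at most 43.7% in Kir2.1-OE libraries and at least 45.4% in controls, whereas Sptbn1 fills 83.5% to 87.2% of the 3 beta spectrins in all 6 libraries.

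To ask whether 1 member changed more than a partner, the log2 ratio of their normalized counts was taken in each library for 8 pairs. The log2 ratio of Ank3 to Ank2 was -0.83, -0.62 and -0.76 in the Kir2.1-OE libraries and -0.27, -0.50 and -0.24 in the controls. This was the only one of the 8 pairs whose groups did not overlap, with a difference of -0.40 (exact permutation test, two-sided, p = 0.1, adjusted p = 0.4). With the offsets for length and GC content given below, the difference was -0.28. For the alpha and beta chains, the difference in the log2 ratio was 0.19 for Sptb to Sptan1, 0.23 for Sptbn1 to Sptan1 and 0.37 for Sptbn4 to Sptan1, with exact p between 0.2 and 0.4. The ratio of Ank2 to Sptbn1 differed by 0.05 (exact p = 0.6), that of Ank3 to Sptbn4 by -0.49 (exact p = 0.2), and those of Ank1 to Ank2 and to Sptb by 0.62 and 0.71 (exact p = 0.3 for each). With 3 libraries against 3 no pair could pass the adjusted threshold, and a ratio that misses it does not show that the partners changed alike.

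The 7 genes have long transcripts, and the change between the groups moved with transcript length over all genes. The longest annotated transcripts of the members measured from 8018 nt (Sptan1) to 14305 nt (Ank2), with a median of 9107 nt against 3380 nt over all genes tested. Of 885 genes tested with a longest transcript above 8000 nt, 64% were called higher and 0.678% lower, and their median log2 fold change was 0.81. Genes with a longest transcript below 1000 nt had a median of -0.50. All 7 members had a log2 fold change above the median of 0.81.

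**Figure D3:**
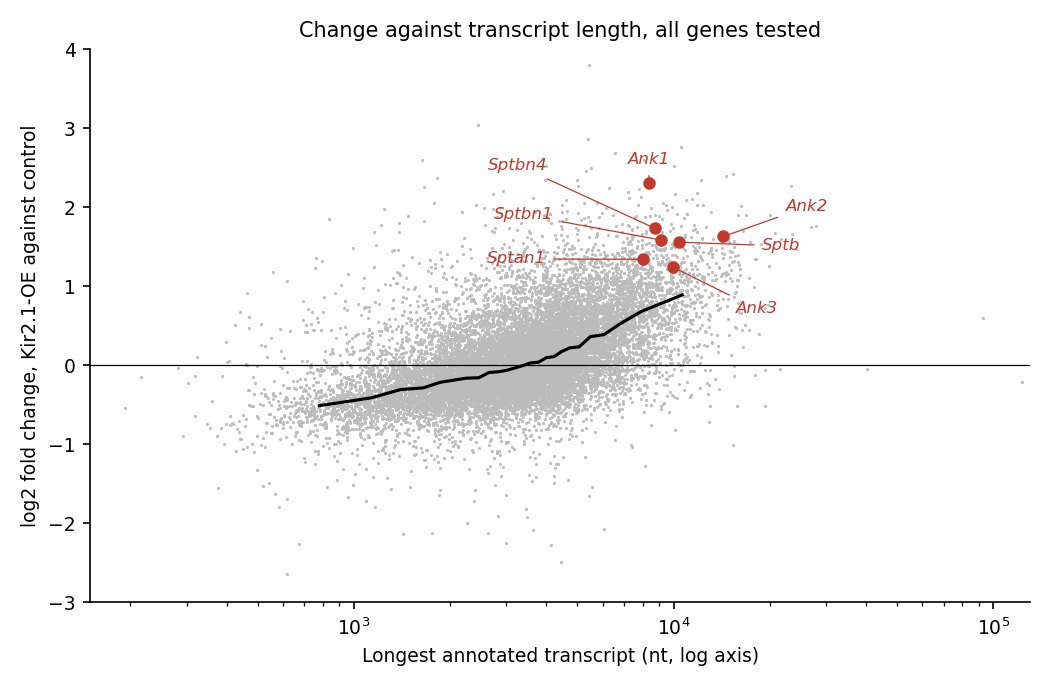
log2 fold change against longest annotated transcript (nt, log axis) for the genes tested that have a length. Grey points are genes, the black line joins medians of 25 groups of equal size, and red points are the 7 members, with log2 fold changes from 1.24 to 2.31 where the median of genes above 8000 nt is 0.81.

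The fit was repeated with an offset that removes, from every library, its own trend over transcript length and GC content. With these offsets 4 of the 7 genes were called higher (Ank1, Ank2, Sptan1 and Sptbn1), while 6.45% of all genes tested were called higher and 3.4% lower. Of genes above 8000 nt, 18.5% were called higher with offsets. The log2 fold change with offsets was 1.42 ± 0.33 (SE) for Ank1, 0.97 ± 0.10 for Sptbn1 and 0.85 ± 0.14 for Ank2. Sptan1, at 0.59 ± 0.11, lay just past the limit of 1.5-fold, and Ank3, at 0.57 ± 0.08, and Sptb, at 0.56 ± 0.10, lay just short of it, all 3 with an adjusted p under 0.05. Sptbn4 had 0.66 ± 0.27, with an adjusted p of 0.0805 by edgeR. The median of the 7 genes was 0.66 with offsets, and that of genes above 8000 nt was 0.20. When the length was that of the median transcript of each gene, an alternative chosen after seeing the data, all 7 were called. That setting also called more genes higher over all genes tested, 1664 against 987 with the offsets above.

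**Figure D4:**
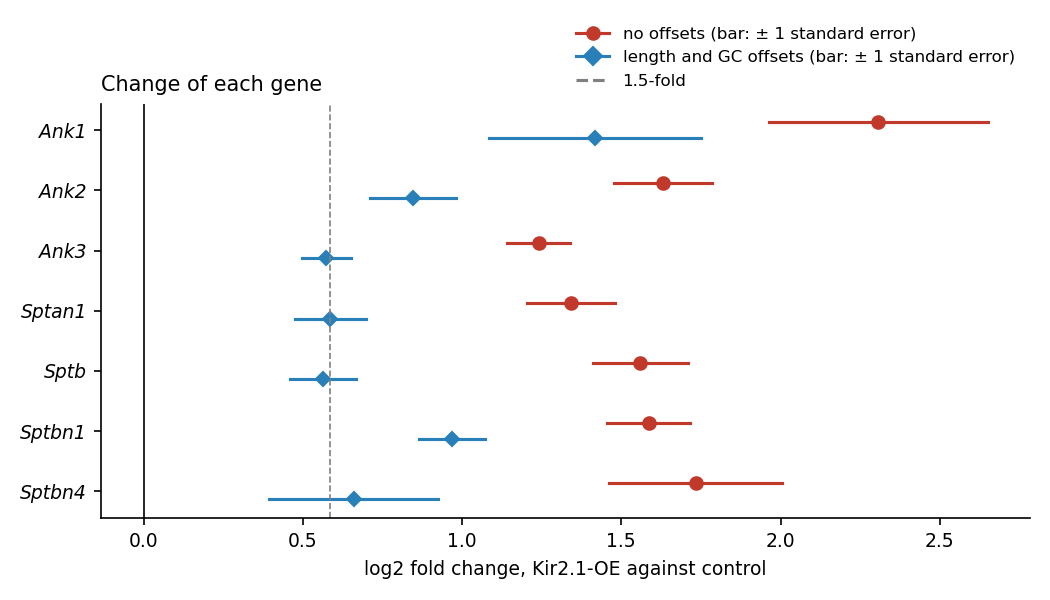
log2 fold change of each gene, Kir2.1-OE against control, without offsets (circles) and with length and GC offsets (diamonds); bars are 1 SE either side and the dashed line is a fold change of 1.5. Offsets moved all 7 genes towards 0, and all 7 remained above 0.

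Genes of the spectrin-actin junction, where rods meet short actin filaments, were called higher in 5 of 16 cases and lower in none, with a median log2 fold change of 0.38. The shares to set beside this list and those below are 15.5% of all genes tested called higher and 5.08% lower. They were 6.45% and 3.4% with offsets. With offsets 3 of the 16 were called higher (Add2, Epb4.1l3 and Actb). The 5 were Add2 (beta adducin, 1.69), the relatives of protein 4.1 Epb4.1l3 (0.94) and Epb4.1l1 (0.86), Tmod2 (a tropomodulin of neurons, 0.71) and Epb4.1 (protein 4.1R, 0.71). Add2 had 599, 394 and 1063 normalized counts in the Kir2.1-OE libraries and 201, 249.9 and 183 in the controls. Its log2 fold change was 1.69 ± 0.31 (SE), with an adjusted p of 0.00194 by edgeR. The other adducins had log2 fold changes of 0.02 (Add1) and 0.31 (Add3), and the cytoplasmic actins 0.45 (Actb) and -0.27 (Actg1). Epb4.1l2 had 0.58 and Tmod1 0.54, both short of the fold limit. Dmtn (dematin) had 0.30, Tpm1 -0.04, Tpm3 -0.14, Tmod3 -0.17 and Mpp1 -0.25.

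Membrane anchors of the red cell skeleton gave no call in either direction among 4 tested by edgeR, and DESeq2 and limma-voom called 0 as well. With edgeR 1 of the 4 (Gypc) had p under 0.05, unadjusted and adjusted (adjusted p = 0.010), but fell short of the fold limit. Their log2 fold changes ran from -0.92 (Epb4.2, protein 4.2) and -0.71 (Slc4a1, band 3, the red cell target of ankyrin-R) through -0.03 (Slc2a1) to 0.45 (Gypc). Rhag had at most 8.03 normalized counts and was not tested. Slc4a1 had 44.0 to 93.1 normalized counts in the Kir2.1-OE libraries and 66.3 to 223 in the controls, and these ranges overlapped, unlike those of Ank1 and Sptb.

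Genes of the axon initial segment and of the node region, not all of them partners of Ank3 or Sptbn4, had a median log2 fold change of 1.23. Of 16 tested, 9 were called higher and none lower, beside 15.5% and 5.08% of all genes tested. With offsets 7 were called higher, all but Cntn2 and Kcnq3, beside 6.45% of all genes tested. The median longest transcript of this list was 7448 nt, and of genes above 8000 nt 64% were called higher, or 18.5% with offsets. The list ran from 3252 nt (Trim46) to 11824 nt (Kcnq3), so these shares are for longer genes than many of the list. The Na+ channel gene Scn8a had the highest change (2.11 ± 0.35, SE), followed by the adhesion molecule L1cam (1.84), the K+ channel gene Kcna2 (1.77) and neurofascin, Nfasc (1.70). Scn8a had 528, 317 and 797 normalized counts in the Kir2.1-OE libraries and 144, 157 and 77.4 in the controls. Cntnap1 (1.63), Scn1a (1.55), Kcna1 (1.43), Cntn2 (1.42) and Kcnq3 (1.05) completed the 9. Not called were Scn2a1 (0.79), Scn2b (0.51), Chl1 (0.51), Cntn1 (0.49), Nrcam (0.40), Trim46 (0.29) and Cntnap2 (0.19). Of these, Chl1, Cntn1 and Nrcam had an adjusted p under 0.05 by edgeR and missed the fold limit alone.

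Of 4 cargo genes of ankyrin-B tested, 1 was called higher and none lower. This was Itpr1, the inositol trisphosphate receptor gene, with a log2 fold change of 0.97, and it was not called with offsets. The remaining log2 fold changes were 0.39 (Slc8a1, the Na+/Ca2+ exchanger), 0.15 (Atp1b1) and 0.03 (Dctn4). Among genes of the calpains, proteases that cut spectrin, and of their inhibitor, the inhibitor gene Cast was higher, with 1736, 1497 and 1371 normalized counts against 599, 852 and 856 and a log2 fold change of 1.00 ± 0.14 (SE). The calpain genes Capn2 (0.34), Capn1 (0.03) and Capns1 (-0.15) were not called, Capn2 because of the fold limit alone.

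**Figure D5:**
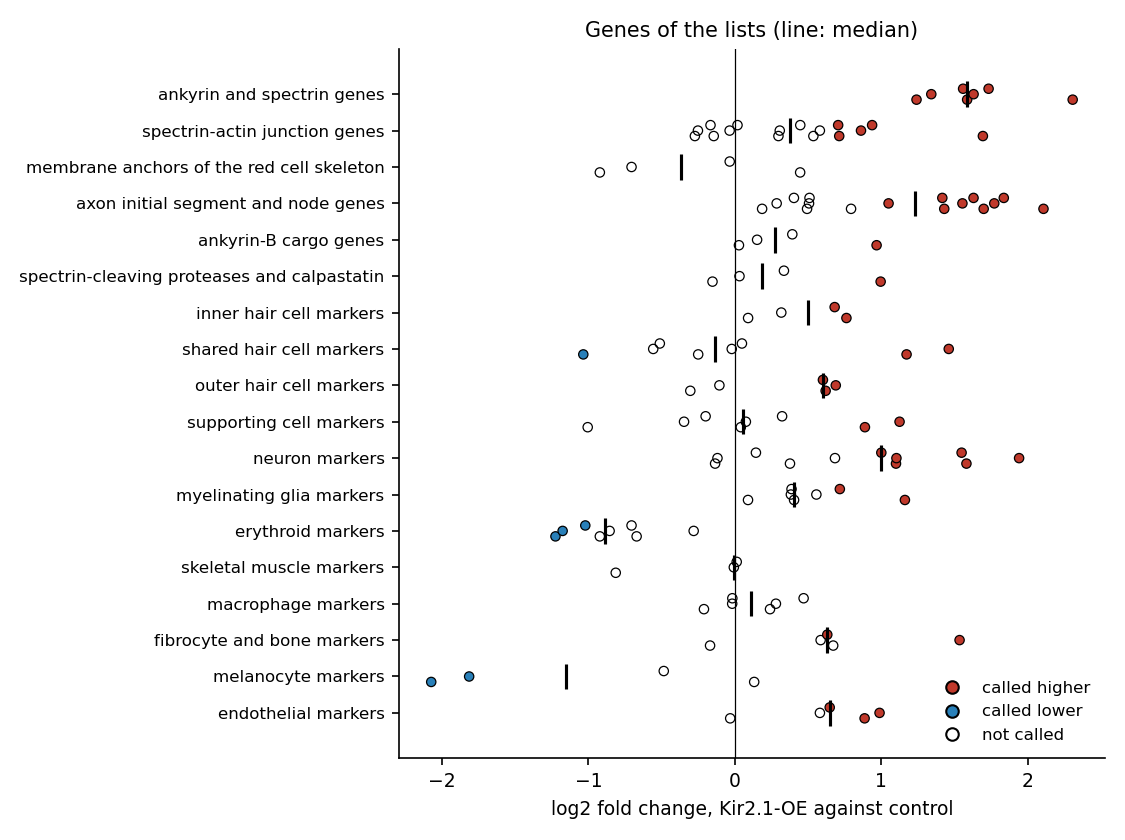
log2 fold change, Kir2.1-OE against control, of the 7 members (top) and of the tested genes of each list. Circles are genes, filled where called higher (red) or lower (blue), and the vertical bar is the median, 1.59 for the members and 1.23 for axon initial segment and node genes.

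Within the control group replicate 2 was the highest library for all 7 members, but in the Kir2.1-OE group the members fell into more than one order. Ank1 and Sptbn4 were highest in Kir2.1-OE replicate 3 and lowest in replicate 2, whereas Ank3, Sptb and Sptbn1 were highest in Kir2.1-OE replicate 1 and lowest in replicate 3. The summed neuron markers followed the order of Ank1 in both groups. Of 11 tested, 6 were called higher (Nefm 1.94, Rbfox3 1.58, Nefl 1.55, Elavl4 1.10, Snap25 1.10 and Thy1 1.00), none was lower and none was at 0. Their summed normalized counts were 31825, 21450.0 and 50275 with Kir2.1 and 17361, 19527 and 12924 in the controls, without overlap between the groups. Without Kir2.1-OE replicate 3, or without control replicate 3, 3 of the 11 were called, and DESeq2 called 5. The lowest of the list was Syt1, at -0.13. Whether the amount of neuronal tissue in the pools had a part in the changes of Ank1, Sptbn4, Add2 and the axon initial segment genes was not tested.

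Among shared hair cell markers, Myo7a, Myo15 and Lhfpl5 had the order of Ank3, Sptb and Sptbn1 in the Kir2.1-OE libraries. Pou4f3, Gfi1, Cib2, Atoh1 and Pvalb had other orders there. In the controls Myo7a, Myo15 and Lhfpl5 were highest in replicate 1, whereas all 7 members were highest in replicate 2. Myo7a had 2113, 2079.6 and 1501 normalized counts in the Kir2.1-OE libraries and 905, 887 and 733 in the controls, with a log2 fold change of 1.17, and Myo15 had 1.46. Of 8 shared hair cell markers these 2 were called higher, and neither was with offsets. The median of the 8 was -0.14, and values below 0 were those of Atoh1, Lhfpl5 (-0.56), Cib2 (-0.51), Gfi1 (-0.25) and Pvalb (-0.02), with Pou4f3 at 0.05. Atoh1, at 11.3 to 43.1 normalized counts, was called lower (-1.03), but not without control replicate 1, and 2 of the 8 were lower without Kir2.1-OE replicate 2 or control replicate 2. Of 4 IHC markers, Otof (0.76) and Calb2 (0.68) were called higher, and without Kir2.1-OE replicate 3 only 1 of the 4 was. Lowest in that list was Slc17a8, at 0.09. With offsets Otof was not called and its value turned to -0.10. Of 5 outer hair cell markers, 3 were called higher (Bcl11b 0.69, Slc26a5 0.62 and Ikzf2 0.60), but none without Kir2.1-OE replicate 1 and 1 without Kir2.1-OE replicate 2 or control replicate 3. Lbh had -0.11, and Ocm, at the head of the list in counts, had -0.30, with mean normalized counts of 17755 against 21916, and 0.20 with offsets. Slc26a5 and Calb2 stayed called with offsets. The part of hair cell number in the values of Ank3, Sptb and Sptbn1 was not tested.

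Erythroid markers gave calls opposite in direction to Ank1 and Sptb. None of 8 tested was higher, and 3 were lower, namely Hbb-bt (-1.22), Hba-a1 (-1.18) and Alas2 (-1.02), the globin counts being uncertain because near-identical globin genes share reads. Their summed normalized counts were 13927, 10945 and 13370.3 in the Kir2.1-OE libraries and 45008, 18084 and 18064 in the controls. The groups did not overlap, but control replicate 1 stood far above the rest, and without it 1 of the 8 was lower and 1 was higher. Hbb-bs was at 0 in Kir2.1-OE replicate 3 and in control replicates 2 and 3, the others were above 0 in every library, and Ahsp was not analysed here. Rhag, with the low counts given above, was not tested. Skeletal muscle also uses Sptb, and of 9 muscle genes 3 were tested and none was called by edgeR, where 0 had an unadjusted p under 0.05, nor by DESeq2 or limma-voom. Their log2 fold changes were -0.81 (Mylpf), -0.01 (Tnnt3) and 0.01 (Des), and without control replicate 2, when 4 were tested, 1 of the 4 was called lower. Acta1 was not tested and had 108 normalized counts in control replicate 1 and at most 18.5 in the other libraries. Ckm, Tnni2, Myh3, Myh8 and Myog, at no more than 23.1, were not tested either, and Myh3 was at 0 in all 3 controls.

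Over the 6 libraries, the genes whose log2 normalized counts were most like those of each member were sought among 13638 tested genes. The highest Pearson correlations were those of Ank1 with Camk4 (0.9987) and Mdga1 (0.9978), of Ank2 with Tln2 (0.9991) and Kdr (0.999), of Ank3 with R3hdm1 (0.9998) and Iqsec1 (0.9996), and of Sptan1 with Zeb2 (0.9993) and Cmip (0.999). Sptb was most like Pdzd7 (0.9998) and Rev3l (0.9996), Sptbn1 most like Arhgef12 (0.9998) and Arid2 (0.9997), and Sptbn4 most like Map6 (0.9991) and Poldip3 (0.9987). Each value rests on 6 points that share the difference between the genotypes, and it describes these libraries alone. The likeness is one of shape and not of size, since Poldip3 had a log2 fold change of 0.15 beside 1.73 for Sptbn4. Mdga1 had 5597, 3437 and 8120.2 normalized counts in the Kir2.1-OE libraries and 1637, 1929 and 1041 in the controls, the order of Ank1 in both groups. Pdzd7, a stereocilia gene of hair cells, had 194, 167 and 141 against 75.2, 78.1 and 63.1, the order of Sptb in both groups. Mdga1 and Pdzd7 were picked for this likeness, so the shared order adds nothing to it, and a cell source was not tested.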

How the data were processed

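The sensory epithelium was microdissected and frozen, total RNA was extracted from each pool, and libraries made with poly(A) enrichment were sequenced in paired reads. The authors mapped the reads to mm10 with the nf-core RNA pipeline and deposited expected counts per gene as Salmon estimated them, not scaled for length or depth. The versions of these tools, the annotation and any strand setting are not given in the sources used here. Of the values, 6.95% were not whole. Estimates can be split between near-identical genes. Control replicate 1 carries the number 4 in its file's header, and the label was followed.

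Counts were rounded, and edgeR 4.0.16 (run in R 4.3.3) was used for the tests (TMM, filterByExpr, quasi-likelihood test, Benjamini-Hochberg over 15303 genes, design with genotype alone), and genes were called at an adjusted p under 0.05 with a fold change above 1.5. Between 35430940 and 41205047 reads were assigned per library, and a count of 3 is the floor of what counting can exclude, which covers counting error only. The SE is the log2 fold change divided by the square root of its F statistic. Libraries of a group differed by more than sampling noise, with a chi-square per degree of freedom between 15.7 and 31.2. Length and GC content came from the longest transcript in GENCODE vM21. Of the 24411 symbols, 23376 matched by symbol, 653 through another symbol and 382 not at all. Offsets were loess trends with a span of 0.4. The code was tested on simulated data.

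The members and the lists were chosen with earlier results of these data known. Some genes of the lists are not reported here and were left out of the list counts, medians and sums. Named were the members, Kcnj2, all genes of the junction, anchor, axon, cargo and calpain lists, the called, extreme and untested genes of the marker lists (hair cell, supporting cell, neuron, glia, erythroid, muscle, macrophage, fibrocyte and bone, melanocyte and endothelial), and for each member the 2 genes most like it with a mean of at least 50 normalized counts (log2 of the count plus 0.5). Alternatives were DESeq2 1.42.0 (size factors and Wald test), limma 3.58.1 (voom), library size and upper quartile scaling, 2 other count filters, the offsets, a replicate block, glmTreat, unrounded counts, no fold limit and each library left out. A linear offset trend, offsets from the median transcript and the list counts with each library left out were added after seeing the data.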

Additional observations from a re-analysis of the deposited data

How the results depend on the processing

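All 7 members kept their direction in every alternative, and all 7 were called higher with each of the 6 libraries left out. Those fits called between 1878 and 2527 genes higher over all genes. Without 1 library, the log2 fold change lay between 1.97 and 2.58 for Ank1, 1.499 and 1.83 for Ank2, 1.16 and 1.35 for Ank3, 1.25 and 1.54 for Sptan1, 1.40 and 1.68 for Sptb, 1.49 and 1.74 for Sptbn1, and 1.46 and 2.02 for Sptbn4. Over all genes 2365 were called higher and 778 lower. Upper quartile scaling gave 1378 lower, so that 57.9% of calls were higher in place of 75.2%, glmTreat against a log2 fold change of 0.6 gave 832 and 57, and no fold limit gave 4184 and 3590, and in each of these all 7 members were called. With offsets 987 genes were called higher and 4 members, with Ank3 at 0.57, Sptb at 0.56 and Sptbn4 at 0.66 no longer called, and with a linear offset trend 904 and 4, with 0.50, 0.49 and 0.57. Replicate numbers are shared by the groups, and same-numbered libraries deviated with correlations of -0.11, -0.23 and -0.21, which showed no pairing. With 3 libraries a group these values cannot exclude it, and control replicate 1 carries the number 4 in its header. The replicate block alone left all 7 members called, with 2220 genes higher and 718 lower, and with the offsets it gave 799 higher, 443 lower and 4 members, with Ank3 at 0.58, Sptb at 0.56 and Sptbn4 at 0.64. Offsets turned the difference in log2 ratio to -0.038 for Sptb to Sptan1 and -0.12 for Ank2 to Sptbn1. They shrank it to -0.28 for Ank3 to Ank2, -0.075 for Ank3 to Sptbn4, 0.056 for Sptbn4 to Sptan1 and 0.49 for Ank1 to Ank2. It grew to 0.38 for Sptbn1 to Sptan1 and 0.79 for Ank1 to Sptb. List counts with offsets were 3 for junction genes, 1 for red cell anchors (Gypc), 0 for ankyrin-B cargo, 1 for IHC, 0 higher and 0 lower for shared hair cell (also 0 lower with the block), 1 for outer hair cell, 1 lower for supporting cell (Tecta), 1 lower for erythroid and 2 higher for endothelial markers. With the block 4 neuron and 2 outer hair cell markers were called higher. With 3 pools a group, no ratio between members could pass its exact test, and the causes of these shifts were not tested.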

Other observations

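Several lists of other cells gave values beside those of the ankyrins and spectrins. Endothelial markers had a median log2 fold change of 0.65, and of 5 tested Cdh5 (0.99), Kdr (0.89) and Pecam1 (0.65) were called higher, with Cldn5 lowest at -0.03. With offsets Kdr (0.43) was not called. Their summed normalized counts were 5640.1 to 6071 with Kir2.1 and 3319 to 4402 without. Of 7 myelinating glia markers, Prx (periaxin, 1.16) and Mag (0.72) were higher and S100b was lowest at 0.09, and their sums were 402162 to 507260.0 against 280486 to 371633. With offsets Prx (0.53) was not called, and Pmp22 was (0.62, against 0.39 without). Melanocyte markers gave 2 lower calls of 4 tested, Tyr (-2.07) and Dct (-1.81), with Tyrp1 highest at 0.13 and Mlana not tested, and sums of 383 to 505 against 903 to 1086. Without Kir2.1-OE replicate 1 or 2, or without control replicate 1, 1 of the 4 was called lower.

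Of 8 supporting cell markers, Prox1 (1.13) and Otoa (0.89) were called higher, and Tecta was lowest at -1.004 and not called. Tecta had 6197, 7758 and 8109.6 normalized counts in the Kir2.1-OE libraries and 25995, 12005 and 6264 in the controls. None of 6 macrophage markers was called in either direction, with log2 fold changes from -0.21 (C1qa) to 0.47 (Csf1r), although 3 of them had an adjusted p under 0.05 by edgeR (3 unadjusted), and DESeq2 and limma-voom called 0. Of 5 fibrocyte and bone markers tested, Acan (1.54) and Coch (0.63) were higher, Otos was lowest at -0.17 and Comp was not tested. That count was 1 without Kir2.1-OE replicate 1 or 2 or control replicate 1 or 2, and 4 without control replicate 3.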
